A study of Mus musculus with 7 samples.

Results

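The chemokine system was examined in RNA from primary hippocampal neurospheres, the free-floating colonies that adult neural stem cells (NSCs) form in culture with EGF and FGF. Genes were taken by symbol from the table of expression values: all Ccl, Cxcl, Ccr, Cxcr and Ackr genes with a number, and Cx3cl1, Xcl1, Xcr1 and Ccrl2. This gave 61 genes of 24346, 39 ligands and 22 receptors. The 7 libraries came from single mice of the C57/BL6 strain, 4 control (WT_116, WT_213, WT_215, WT_220) and 3 Med23 CKO (KO_117, KO_214, KO_218), from which hippocampal cells were taken at 2 months of age. Med23 CKO mice carried Nestin-Cre ER, a tamoxifen-activated recombinase driven by the Nestin promoter, and both Med23 alleles floxed around exons 5 to 7; controls, labelled wild type, were littermates that the study's methods describe as Med23 flox/+ or Med23 flox/flox. Mice of both groups received tamoxifen by gavage, 200 mg/kg daily for 5 days. The labels place this at the age of 2 months, and the study's methods give an earlier age for cultures. Cells that never expressed Nestin keep their Med23 alleles in this model.

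Chemokines are small secreted proteins that guide migrating cells. They are named after the spacing of their first cysteines (CC, CXC, CX3C and XC), and they act through receptors that couple to inhibitory G proteins, whereas atypical receptors bind the ligands without G protein signaling and remove them. In the brain, microglia, endothelial cells and reactive astrocytes make inflammatory chemokines after activation of NF-kB, while Cxcl12 and its receptor Cxcr4 guide the placement of progenitors in the dentate gyrus, and Cx3cl1 is a neuronal ligand of the microglial receptor Cx3cr1.

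The 5′ regions of several ligands described below are shown because those of Cxcl1, Cxcl2 and Cxcl3, 3 neighboring genes, share a short motif close to the transcription start. Each is the RefSeq window from 250 bases before to 50 bases after the start in GRCm38.p6, printed 5′ to 3′ on the strand of the gene. Capitals mark matches on either strand to an NF-kB type motif (GGG, then NN, then TTTCC) in the first 5 sequences, and to a STAT type motif, TTCNNNGAA, in the last. The windows lie at chr5:90890995-90891294 (Cxcl1, forward strand), chr5:90903649-90903948 (Cxcl2, forward), chr5:90785851-90786150 (Cxcl3, forward), chr11:83578587-83578886 (Ccl9, reverse), chr11:83649329-83649628 (Ccl3, reverse) and chr13:56296502-56296801 (Cxcl14, reverse).
Cxcl1: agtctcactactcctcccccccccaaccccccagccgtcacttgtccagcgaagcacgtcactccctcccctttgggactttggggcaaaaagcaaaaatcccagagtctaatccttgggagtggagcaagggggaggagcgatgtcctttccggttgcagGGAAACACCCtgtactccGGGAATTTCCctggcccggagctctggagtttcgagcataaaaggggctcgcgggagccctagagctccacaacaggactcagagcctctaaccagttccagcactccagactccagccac
Cxcl2: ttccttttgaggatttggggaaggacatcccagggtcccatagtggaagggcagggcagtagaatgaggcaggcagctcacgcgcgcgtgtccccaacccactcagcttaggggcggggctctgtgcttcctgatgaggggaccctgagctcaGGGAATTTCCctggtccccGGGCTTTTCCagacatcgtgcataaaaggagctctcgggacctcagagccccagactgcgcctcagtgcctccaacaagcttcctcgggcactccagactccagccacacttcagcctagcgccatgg
Cxcl3: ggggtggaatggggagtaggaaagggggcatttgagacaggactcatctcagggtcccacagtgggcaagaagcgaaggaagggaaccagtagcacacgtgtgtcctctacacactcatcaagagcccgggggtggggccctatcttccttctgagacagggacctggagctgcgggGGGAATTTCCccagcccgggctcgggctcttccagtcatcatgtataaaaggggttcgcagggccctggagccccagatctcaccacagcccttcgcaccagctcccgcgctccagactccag
Ccl9: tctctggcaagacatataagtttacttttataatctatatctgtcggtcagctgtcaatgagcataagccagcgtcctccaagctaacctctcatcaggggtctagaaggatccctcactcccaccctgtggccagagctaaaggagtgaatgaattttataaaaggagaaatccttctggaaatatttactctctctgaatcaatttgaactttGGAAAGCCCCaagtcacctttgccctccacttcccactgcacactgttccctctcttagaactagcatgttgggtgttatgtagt
Ccl3: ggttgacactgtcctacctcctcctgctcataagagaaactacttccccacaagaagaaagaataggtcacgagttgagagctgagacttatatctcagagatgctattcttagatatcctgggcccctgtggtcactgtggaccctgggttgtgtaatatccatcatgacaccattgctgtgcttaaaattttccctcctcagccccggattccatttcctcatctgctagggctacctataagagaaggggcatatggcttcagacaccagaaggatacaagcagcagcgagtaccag
Cxcl14: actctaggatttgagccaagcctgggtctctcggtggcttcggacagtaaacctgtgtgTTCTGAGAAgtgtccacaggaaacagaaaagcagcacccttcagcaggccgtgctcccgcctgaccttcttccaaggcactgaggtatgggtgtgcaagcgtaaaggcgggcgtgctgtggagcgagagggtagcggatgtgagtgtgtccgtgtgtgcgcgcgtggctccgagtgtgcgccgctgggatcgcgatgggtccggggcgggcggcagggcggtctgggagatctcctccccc
The NF-kB type motif began 71 and 89 bases before the start in Cxcl1, 78 and 97 bases before it in Cxcl2, 73 bases before it in Cxcl3 and 35 bases before it in Ccl9. It was present in the windows of 6 of the 45 genes that had one (Ccl20, Ccl9, Ccr3, Cxcl1, Cxcl2 and Cxcl3), and in 1.63% of all 32851 windows. The broader NF-kB consensus, which overlaps these letters, was found in the windows of 13 of the 45 genes and in 8.46% of all windows. The STAT type motif was found in 3 of the 45 genes (Ccl17, Ccr6 and Cxcl14) and in 8.3% of all windows. Ccl3 had no NF-kB type match in its window. The motif forms were chosen after the sequences had been seen, the matches are descriptions of letters, and binding was not measured.

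Levels were measured as FPKM, fragments mapped to a gene scaled by its transcript length and by the size of the library. Wherever a value is given for each library below, controls come in the order WT_215, WT_116, WT_213, WT_220 and Med23 CKO in the order KO_117, KO_214, KO_218. Med23, read over all its exons and not the floxed ones alone, gave 11.4, 10.3, 12.9 and 10.1 FPKM across controls against 9.97, 9.27 and 8.12 FPKM across Med23 CKO (two-sided exact permutation, p = 0.0571). Of the labelled cell type, the stem cell genes Nes, Sox2 and Vim were present in every library. KO_214 stood apart, and so, at the other end, did WT_220 and KO_117. The summed FPKM of a list of 26 microglia and macrophage genes was 199, 376, 528 and 103 across controls against 112, 2282 and 400 across Med23 CKO. Of the 26 genes, 21 had their highest value in KO_214, where 25.4% of all genes tested had theirs. Within that list Tyrobp, Ctss and Cd68 were among the genes with the largest values, whereas Cx3cr1, Siglech and Gpr34 stayed below 1 FPKM in each library. Endothelial genes (14 on the list) summed to 20.8 to 106.5 FPKM across controls against 18.3, 178.2 and 60.5 FPKM across Med23 CKO, and mural and fibroblast genes (14 on the list) to 69.9 to 145 FPKM against 60.5, 574 and 83.6 FPKM. Markers of T, B, NK and mast cells and of neutrophils summed to between 0.92 and 3.77 FPKM outside KO_214 and to 19.7 FPKM in it, 17.2 of them from S100a8. Of 14 neural stem cell and astrocyte genes, the sums were 3576, 1962, 3283 and 4094 FPKM across controls, against 4003, 2203 and 2279 FPKM across Med23 CKO, highest in WT_220 and KO_117, where the fewest genes were above 0 (17124 and 16841, against 17379 to 18113). Of 9 oligodendrocyte genes, 9 were lower on average in Med23 CKO, and 0 were called at an unadjusted p under 0.05 by limma. Their median log2 difference of -0.73 was 0.65 without KO_117 and -1.33 without KO_214. Their sums were 3389, 5463, 2956 and 3102 FPKM across controls, against 2235, 3324 and 3071 FPKM across Med23 CKO. Of 9 neuroblast and neuron genes 6 were lower, with 1 called lower (Gad1). Of all 14151 genes tested, 7955 had a lower mean and 0.996% were called lower. In bulk RNA, fewer cells of a type and less RNA per cell cannot be told apart.

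Of the 61 chemokine and receptor genes, 9 were listed at 0 in all libraries (Ccl21b, Ccl21c, Ccl26, Ccl27b, Ccr4, Ccr7, Ccr8, Cxcl15 and Cxcr1) and 23 more had a mean FPKM under 0.5 over the 7 libraries, with no single value above 0.633 FPKM. The other 29, which comprised 22 ligands and 7 receptors, were compared between groups, and 5 of them passed this limit only with KO_214 included. Depending on the library, between 36 and 47 of the 61 genes were above 0, and between 12 and 29 reached 1 FPKM. On the FPKM scale, which is per length, the highest means over the 7 libraries were those of Ccl2 (40.2 FPKM), Ccl3 (39.4 FPKM), Cx3cl1 (25.7 FPKM), Ccl4 (19.5 FPKM), Cxcl1 (17.5 FPKM) and Cxcl14 (16.8 FPKM). The order of Ccl2, Ccl3, Ccl4 and Cxcl1 rested on KO_214, and in the control libraries Cx3cl1 had the highest mean, 25.2 ± 6.55 FPKM (SD, n = 4).

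**Figure D1:**
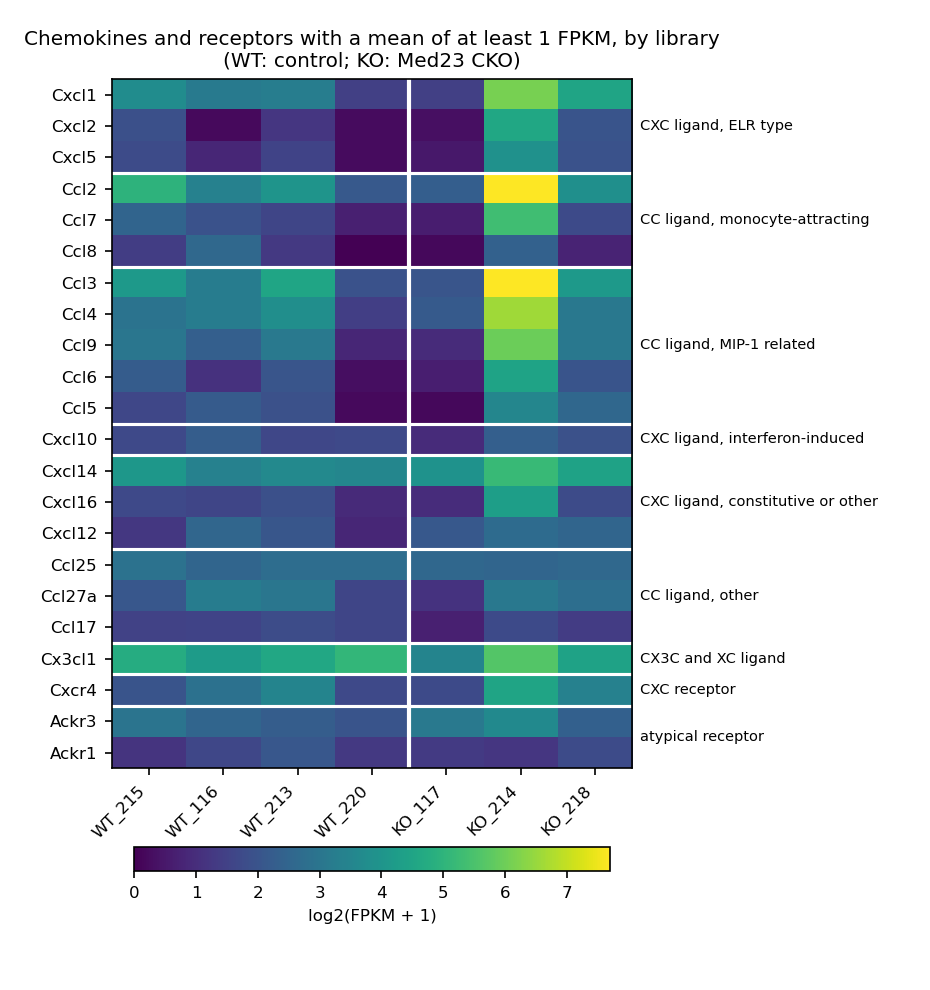
Heat map of log2(FPKM + 1) for the 22 chemokines and receptors with a mean of at least 1 FPKM, 1 row per gene grouped by role, and 1 column per library, with control on the left and Med23 CKO on the right of the white line. The column of KO_214 holds the highest value of 17 of the 22 genes.

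Med23 CKO was compared with control on log2(FPKM + 1) by limma over 14151 genes. For the chemokine genes, 21 of 29 had a higher mean in Med23 CKO (72.4%), where 43.8% of all genes tested did, and the median difference was 0.69 on the log2 scale, against -0.03 for all genes tested. A single gene, Cxcl14, had an unadjusted p under 0.05 among those higher (3.45% of the 29, background 0.502%) and 0 of 29 among those lower (background 0.996%). At an adjusted p under 0.05, 0 of the 29 passed in either direction, and 0 of all genes tested did. The groups overlapped for all 29: in none did the 3 Med23 CKO libraries exceed every control, or fall below every control (background 0.784% above and 1.53% below). The highest of the 7 values was in KO_214 for 24 of the 29 genes (82.8%), where 25.4% of all genes tested had theirs. These 24 include the genes that passed the limit of 0.5 FPKM only with KO_214 included. The lowest value was in WT_220 for 14 of the 29 and in KO_117 for 8, so that a control and a Med23 CKO library shared the low end. No share over all genes is given for lowest values. WT_220 and KO_117 also had the fewest genes above 0 over the whole table (17124 and 16841). Without KO_214, 24 genes could be compared, 8 of them had a higher mean in Med23 CKO (33.3%, background 39.8%), and the median difference was -0.16. In that fit 0 of the 24 had an unadjusted p under 0.05 in either direction (background 0.559% higher, and 284 of 13947 genes in either direction). Without KO_117, 9 of 29 genes were higher at an unadjusted p under 0.05 (background 2.54%), among them Ccl5, Ccl9, Ccrl2, Cxcl1, Cxcl14, Cxcl2, Cxcl5 and Cxcr4, and 25 had a higher mean (86.2%, background 46.7%). Without KO_218, 1 gene passed (Ackr3, background 0.983%) and 22 of 29 had a higher mean (75.9%, background 51.1%).

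The monocyte-attracting ligands Ccl2, Ccl7, Ccl8 and Ccl12, most of which signal through Ccr2, were dominated by 1 Med23 CKO library. Ccl2, on chr11:82035577-82037452, had 30.4, 9.40, 14.8 and 3.40 FPKM across controls, against 3.91, 206 and 13.4 FPKM across Med23 CKO. KO_214 stood 6.78-fold above the next library, which was a control, and the other Med23 CKO values lay within the control range. The difference in mean log2(FPKM + 1) came to 0.99 with a standard error of 1.25 (exact permutation p = 0.571, two-sided as throughout), -0.55 without KO_214 and 0.50 without control WT_220. Ccl7 followed the same order at the top, with 4.52, 2.81, 2.08 and 0.607 FPKM across controls, against 0.539, 39.2 and 2.33 FPKM across Med23 CKO (log2 difference 0.89, exact permutation p = 0.629; -0.50 without KO_214). Ccl12 was listed at 0 in WT_116, WT_213, WT_220 and KO_117, and had 0.618 FPKM in WT_215, 5.53 FPKM in KO_214 and 0.112 FPKM in KO_218. Ccl8 differed from these, with its highest value in control mouse WT_116 (5.01 FPKM), 4.27 FPKM in KO_214 and at most 1.65 FPKM elsewhere. Their receptor Ccr2 stayed at or below 0.0688 FPKM in each library.

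The MIP-1 related ligands Ccl3, Ccl4, Ccl5, Ccl6 and Ccl9, which draw monocytes or T cells, all had their highest value in KO_214. Ccl3, on chr11:83647843-83649378, had 16.7, 8.46, 21.8 and 2.81 FPKM across controls, against 3.08, 206 and 16.9 FPKM across Med23 CKO. Apart from KO_214, the Med23 CKO values fell inside the control range (log2 difference 1.17, standard error 1.27, exact permutation p = 0.543; -0.36 without KO_214 and 0.66 without WT_220). Ccl4 had 6.58, 8.30, 13.1 and 1.70 FPKM across controls, against 3.55, 95.8 and 7.44 FPKM across Med23 CKO (log2 difference 1.11, standard error 1.05, exact permutation p = 0.457; -0.22 without KO_214). The bounds of Ccl4 in RefSeq overlap those of Ccl3, so some reads may have been counted for either gene. Ccl9 had 7.06, 4.03, 7.67 and 0.784 FPKM across controls, against 0.926, 61.8 and 7.46 FPKM across Med23 CKO (log2 difference 1.01, standard error 1.13, exact permutation p = 0.514). Ccl3, Ccl4 and Ccl9 each had the lowest value in control WT_220. Ccl6 had 3.71, 1.13, 3.07 and 0.224 FPKM across controls, against 0.576, 21.0 and 2.97 FPKM across Med23 CKO (log2 difference 0.96, exact permutation p = 0.514). Ccl5, made by T cells and by activated microglia and astrocytes, had 2.13, 3.61, 2.76 and 0.153 FPKM across controls, against 0.126, 10.6 and 4.91 FPKM across Med23 CKO (log2 difference 0.60, exact permutation p = 0.543). For all 5 ligands of this group, the mean log2(FPKM + 1) was higher in Med23 CKO with KO_214 and lower without it. Ccr1, a receptor of several of them, was far lower, with 3.96 FPKM in KO_214 and at most 0.513 FPKM elsewhere.

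The ligands of Cxcr2, which attract neutrophils, were highest in KO_214, with KO_218 next. Cxcl1, on chromosome 5, had 12.4, 8.05, 8.60 and 1.76 FPKM across controls, against 1.75, 68.2 and 21.5 FPKM across Med23 CKO. Both KO_214 and KO_218 were above all controls, and KO_117 was level with the lowest control. The log2 difference was 1.11 (standard error 1.06, exact permutation p = 0.4), and 0.06 without KO_214. Cxcl2 had 2.69, 0.138, 1.33 and 0.162 FPKM across controls, against 0.245, 22.8 and 2.96 FPKM across Med23 CKO (log2 difference 1.42, standard error 0.95, exact permutation p = 0.229; 0.27 without KO_214). Cxcl5 followed, with 2.40, 0.757, 1.92 and 0.162 FPKM across controls, against 0.422, 13.8 and 2.85 FPKM across Med23 CKO. In these 3 genes KO_218 was the second highest library, while Cxcl3 was barely listed (0.54 FPKM in KO_214 and at most 0.0681 FPKM elsewhere) although its window above holds the same NF-kB type motif. Cxcr2, their receptor, lay between 0.109 and 0.48 FPKM, with no excess in KO_214 (0.173 FPKM).

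**Figure D2:**
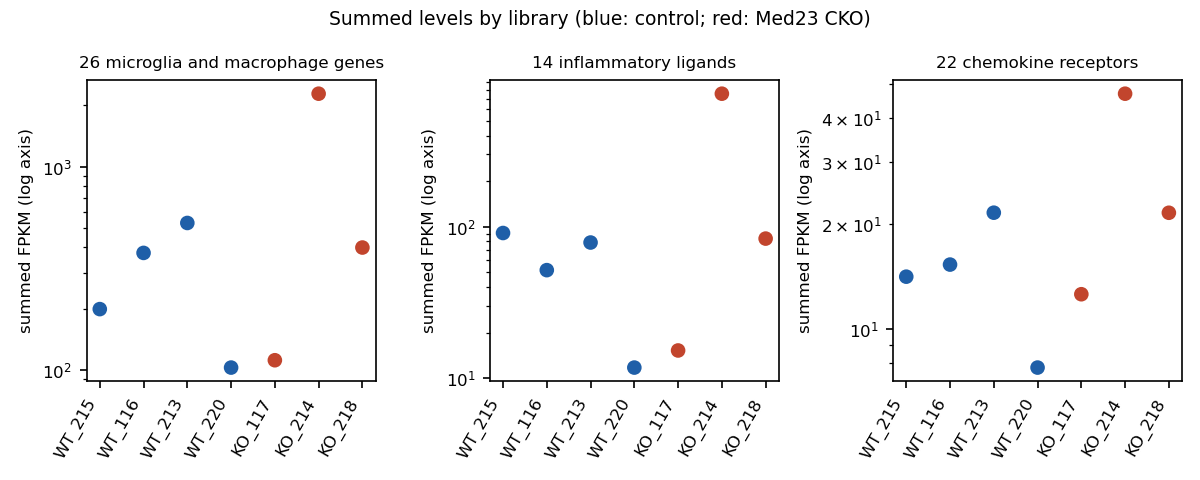
Summed FPKM on a log axis for each of the 7 libraries, for 26 microglia and macrophage genes, the 14 ligands of the 3 groups above and the 22 receptors; blue points are control and red points Med23 CKO. KO_214 is highest in each panel, at 2282, 756 and 47.1 FPKM, and WT_220 is lowest, at 103, 11.8 and 7.77 FPKM.

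Together, the 14 ligands of these 3 groups summed to 90.9, 51.7, 78.7 and 11.8 FPKM across controls, against 15.2, 756 and 83.5 FPKM across Med23 CKO. Of the 12 that were compared, 11 had their highest value in KO_214 (background 25.4%) and 11 a higher mean in Med23 CKO (background 43.8%). Ccl12, 1 of the 12, passed the limit of 0.5 FPKM only with KO_214 included. The median log2 difference was 1.0, and -0.22 without KO_214. KO_214 was highest, and WT_220 and KO_117 were the 2 lowest, for the sum of these ligands and for that of microglia and macrophage genes. The same held for the mural and fibroblast genes, at 145, 75.7, 138 and 69.9 FPKM across controls, against 60.5, 574 and 83.6 FPKM across Med23 CKO. WT_215 was second highest for the ligands and for the mural and fibroblast genes. In the microglia and macrophage sum it was below WT_116, WT_213 and KO_218. Of the 23 genes of the microglia and macrophage list that were compared, 23 were higher on average in the CKO group (background 43.8%). At an unadjusted p under 0.05 by limma, 0 of them were called (background 0.502% higher). Their median log2 difference of 0.86 was -0.28 without KO_214. Relative to the summed level of that list, a measure chosen after the values were seen, the ligands gave another order. Ccl2 came to 15.3, 2.50, 2.81 and 3.31 FPKM per 100 FPKM of microglia and macrophage genes across controls, against 3.50, 9.02 and 3.35 across Med23 CKO. Here the highest library was control WT_215, and KO_117 and KO_218 lay close to the other controls (exact permutation test on the log2 scale, p = 0.83). Ccl3 had 8.39 in WT_215 and 9.03 in KO_214 on this measure, with 2.25 to 4.23 in the other libraries (exact permutation p = 0.514). For Cxcl1 it was 6.24 in WT_215, 5.38 in KO_218 and 2.99 in KO_214, and 1.57 to 2.14 in the rest (exact permutation p = 0.686). Of 22 genes with a mean of at least 1 FPKM, 2 were highest in KO_214 on this measure, namely Ccl3 and Ccl4, and 8 in WT_215. The divisor was 2282 FPKM in KO_214 and at most 528 FPKM elsewhere. Any gene that does not rise with the list is therefore low in KO_214 on this measure. The count is in part set by this, and no share over all genes is given. Some genes of the list, such as Sall1, are also expressed by neural cells, and the part of these cells in the ligand values was not tested beyond these ratios.

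**Figure D3:**
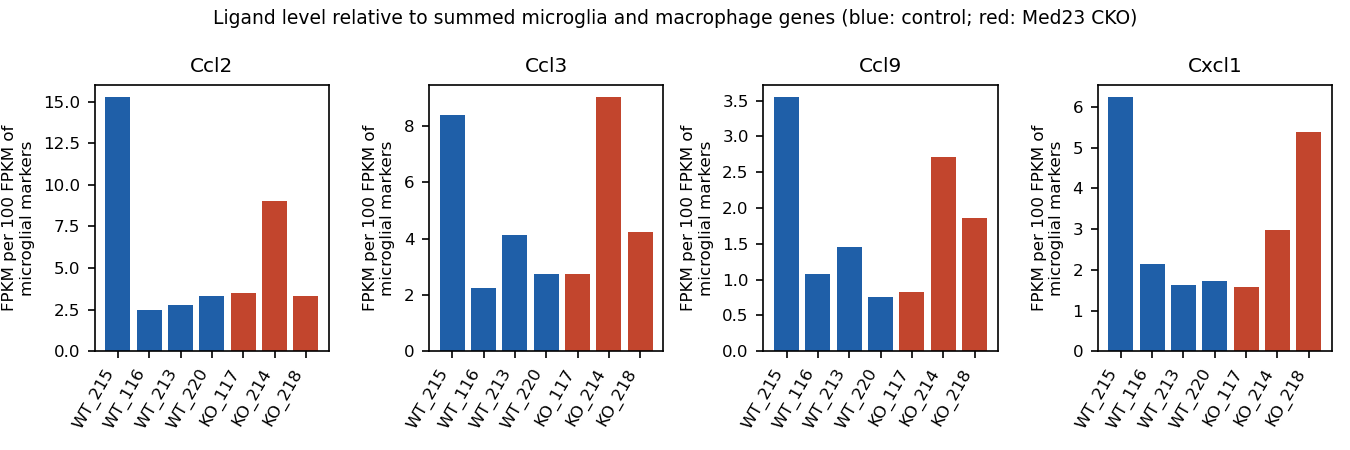
FPKM of Ccl2, Ccl3, Ccl9 and Cxcl1 per 100 FPKM summed over 26 microglia and macrophage genes, 1 bar per library, blue for control and red for Med23 CKO. WT_215 is highest for Ccl2 (15.3), Ccl9 (3.55) and Cxcl1 (6.24), and KO_214 for Ccl3 (9.03).

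Cx3cl1 (fractalkine), a membrane-bound ligand that is shed by Adam10 and Adam17, had the highest mean FPKM of the chemokines in control neurospheres, although Ccl2 was above it in WT_215. It had 26.3, 17.7, 23.5 and 33.4 FPKM across controls, against 10.1, 48.3 and 20.4 FPKM across Med23 CKO. The extremes were both Med23 CKO libraries, and the log2 difference was -0.17 (standard error 0.48, exact permutation p = 0.8), -0.73 without KO_214 and 0.34 without KO_117. Unlike the inflammatory ligands, WT_220 was its second highest library. The receptor Cx3cr1, outside the symbol rule, stayed between 0.0866 and 0.782 FPKM, and had 0.157 FPKM in KO_214, where Tyrobp and other microglia and macrophage genes were highest. Adam10 (66.7 ± 24.8 FPKM in control, SD, n = 4) and Adam17 (25.5 ± 5.69 FPKM) differed between groups by 0.17 and 0.18 on the log2 scale (exact permutation p = 0.743 and 0.543).

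Cxcl14, a ligand whose receptor is not settled, had the smallest p of the 29 genes compared. On chr13:56288643-56296811, it had 15.9, 9.32, 11.2 and 10.5 FPKM across controls, against 14.0, 35.6 and 20.7 FPKM across Med23 CKO. KO_214 and KO_218 were above all controls and KO_117 was below control WT_215, so the groups overlapped. The log2 difference was 0.87 (standard error 0.33, unadjusted p = 0.0315 and adjusted p = 1 from limma, exact permutation p = 0.0857), and 0.53 without KO_214 (exact permutation p = 0.2 over 15 splits, where 0.0667 is the smallest possible). Leaving out WT_116, WT_213, WT_220 or KO_218 also brought its unadjusted p above 0.05, to between 0.0635 and 0.0734, at log2 differences of 0.77 to 0.90.

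The Cxcl12 axis, which acts in the placement of neural progenitors, had higher means in Med23 CKO for the ligand and both of its receptors, none past the test. Cxcl12 had 1.39, 4.80, 3.18 and 0.770 FPKM across controls, against 3.38, 5.47 and 4.68 FPKM across Med23 CKO. The groups overlapped through control WT_116, which was above KO_117 and KO_218, while the other controls were below each Med23 CKO library. The log2 difference was 0.77 (standard error 0.42, exact permutation p = 0.2), 0.65 without KO_214 and 1.06 without WT_116 (unadjusted limma p = 0.0259). Ackr3, the scavenging receptor of Cxcl12, had 6.76, 4.70, 3.79 and 3.01 FPKM across controls, against 7.63, 11.5 and 4.15 FPKM across Med23 CKO. Here KO_117 and KO_214 were above all controls, with a log2 difference of 0.61 (standard error 0.36, exact permutation p = 0.171) that was 0.95 without KO_218 (unadjusted limma p = 0.0289), 0.30 without KO_214 and 0.08 with array weights. Cxcr4, the signaling receptor and the receptor with the highest mean FPKM, had 3.01, 6.28, 10.1 and 2.25 FPKM across controls, against 2.29, 21.3 and 9.49 FPKM across Med23 CKO (log2 difference 0.69, standard error 0.69, exact permutation p = 0.543; 0.04 without KO_214). KO_117, second highest for Ackr3, was second lowest for Cxcr4.

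**Figure D4:**
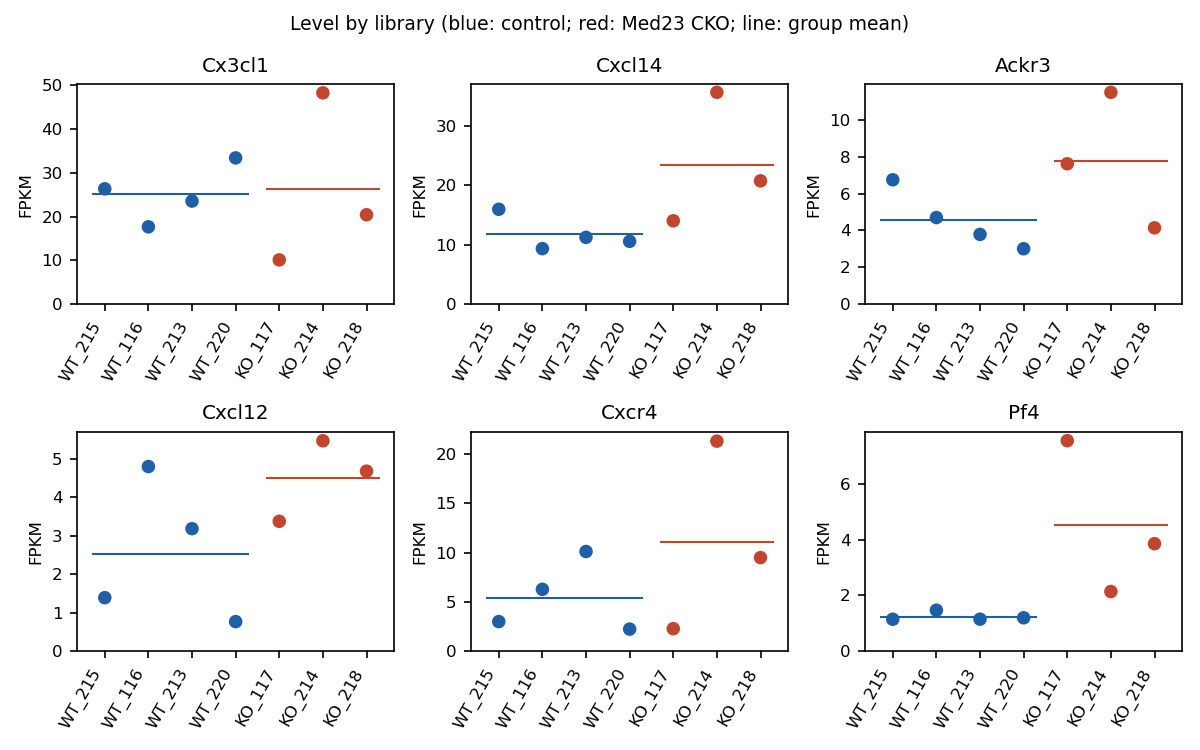
FPKM of Cx3cl1, Cxcl14, Ackr3, Cxcl12, Cxcr4 and Pf4 in each library, blue points for control and red for Med23 CKO, with a line at each group's mean. The groups overlap for each gene except Pf4, whose 3 Med23 CKO values (2.14 to 7.55 FPKM) lie above the 4 control values (1.15 to 1.47 FPKM).

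Pf4, a CXC chemokine of platelets and some macrophages whose symbol falls outside the rule, had groups that did not overlap. Of all genes tested, 0.784% had every Med23 CKO value above every control. It had 1.15, 1.47, 1.15 and 1.20 FPKM across controls, against 7.55, 2.14 and 3.86 FPKM across Med23 CKO. The highest value was in KO_117, where microglia and macrophage genes and most inflammatory ligands were low. The log2 difference was 1.18 (standard error 0.34, unadjusted p = 0.00873 and adjusted p = 1 from limma), 1.53 without KO_214 and 0.80 without KO_117; the exact permutation p = 0.0286 is the lowest value this design can give. Pf4 is 1 of 12 compared genes on a list of chemokine-related genes outside the rule. Of these, 8 had a higher and 4 a lower mean in Med23 CKO (background 43.8% higher). At an unadjusted p under 0.05 by limma, 2 were called, both higher (background 0.502%). They were Pf4 and Cklf (log2 difference 0.77, standard error 0.28, exact permutation p = 0.0857, and log2 difference 0.55 without KO_214). Ppbp, its neighbor and another platelet chemokine, did not exceed 0.155 FPKM.

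The remaining ligands had means of at most 5.33 FPKM over the 7 libraries, and most did not stand out in KO_214. Ccl25, which guides T cell precursors through Ccr9, varied little, with 6.45, 4.72, 5.79 and 5.68 FPKM across controls, against 4.88, 4.75 and 5.07 FPKM across Med23 CKO (log2 difference -0.17, exact permutation p = 0.171). Cxcl10, an interferon-induced ligand of Cxcr3, had 2.22, 3.86, 2.14 and 2.21 FPKM across controls, against 0.923, 4.07 and 2.74 FPKM across Med23 CKO (log2 difference -0.10, exact permutation p = 0.914), and the related Cxcl9 and Cxcl11 stayed at or below 0.181 FPKM. Ccl17, a ligand of Ccr4, was at 1.84 to 2.47 FPKM across controls, against 0.598, 2.32 and 1.59 FPKM across Med23 CKO (log2 difference -0.35, exact permutation p = 0.229). Ccl27a, a skin-homing ligand of Ccr10, had 3.23, 8.35, 7.20 and 2.06 FPKM across controls, against 1.16, 7.48 and 5.84 FPKM across Med23 CKO (log2 difference -0.16, exact permutation p = 0.83). Its near-identical copy Ccl27b was listed at 0, and reads of such copies may be assigned to either. Cxcl16, a membrane-bound ligand of Cxcr6, was again set by KO_214, with 2.23, 2.05, 2.69 and 0.88 FPKM across controls, against 0.949, 19.0 and 2.37 FPKM across Med23 CKO (log2 difference 0.82, exact permutation p = 0.4; -0.17 without KO_214). Among atypical receptors, Ackr1 averaged 1.99 ± 0.921 FPKM (SD, n = 4) over controls, with 1.33 FPKM in KO_214, and Ccrl2, which binds chemerin, had 2.61 FPKM in KO_214, 1.75 FPKM in KO_218 and between 0.179 and 1.03 FPKM in the rest. Genes below a mean of 1 FPKM that were compared included Ccl11, an eosinophil attractant, with 3.98 FPKM in KO_214 and at most 0.49 FPKM elsewhere, and Ccl28 and Ackr4, whose highest values were 1.26 and 1.07 FPKM. RefSeq places Ackr1, Ccl27a, Cxcl10, Cxcl16 and Ccl6 over parts of Cadm3, Il11ra1, Art3, Zmynd15 and E230016K23Rik, and the strand of the counting is not given in the sources used here, so these levels are less certain.

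**Figure D5:**
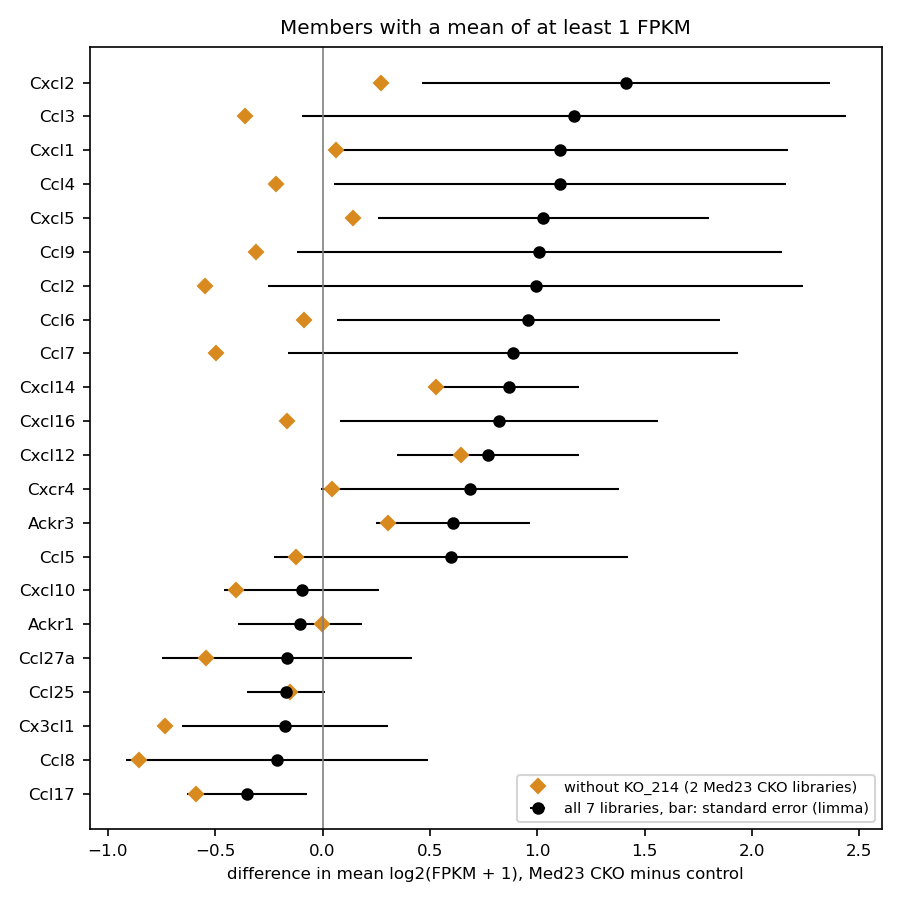
Difference in mean log2(FPKM + 1), Med23 CKO minus control, for the 22 chemokines and receptors with a mean of at least 1 FPKM; black points with standard errors use all 7 libraries and orange diamonds leave out KO_214. For Ccl2 the value goes from 0.99 to -0.55, for Ccl3 from 1.17 to -0.36, and for Cxcl12 from 0.77 to 0.65.

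Many of these ligands lie in clusters. A highest value in KO_214 was found for 24 of the 29 genes compared (background 25.4%). It was found for 8 of the 10 with no other gene of the symbol rule within 1000000 bases. Of these 8, Ackr4 passed the limit of 0.5 FPKM only with KO_214 included. In the cluster on chr11:83525778-83664683 (Ccl5, Ccl9, Ccl6, Ccl3 and Ccl4), 5 of the 5 genes were compared and 5 had their highest value in KO_214. On chr11:82035577-82179812 (Ccl2, Ccl7, Ccl11, Ccl12, Ccl8 and Ccl1), 4 of the 5 compared did, Ccl8 being the exception. Of these 4, Ccl11 and Ccl12 passed the limit of 0.5 FPKM only with KO_214 included. On chr5:90759298-90905938 (Cxcl5, Cxcl3, Cxcl15, Cxcl1 and Cxcl2), 3 of 3 did. Pf4 and Ppbp, outside the symbol rule, also lie in this interval. Pf4 was highest in KO_117 (7.55 FPKM, against 2.14 FPKM in KO_214). On chr8:94745684-94812038 (Ccl22, Cx3cl1 and Ccl17), 1 of the 2 compared was highest in KO_214. Of Cxcl9, Cxcl10 and Cxcl11 on chr5:92321331-92363296, only Cxcl10 was compared, and its value in KO_214 (4.07 FPKM) was close to that in WT_116 (3.86 FPKM).

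Signaling genes downstream of chemokine receptors more often had a higher than a lower mean in Med23 CKO. Of 54 listed genes in the table (G proteins, arrestins, receptor kinases, PI3 kinases, Rac and Rap GTPases and their regulators), 52 were compared, 37 had a higher and 15 a lower mean in Med23 CKO (background 43.8% higher), and the median log2 difference was 0.12, and -0.01 without KO_214. At an unadjusted p under 0.05, 2 were higher and 0 lower (background 0.502% and 0.996%), with 0 at an adjusted p under 0.05 from limma. Without KO_214, 1 of the 50 compared was called in either direction (background 284 of 13947 genes). The 2 called higher with all libraries were Lyn, a Src family kinase, and Rap1b, a GTPase that activates integrins. Lyn had a log2 difference of 0.64 (standard error 0.20, exact permutation p = 0.0286), and 0.56 without KO_214. Each Med23 CKO library was above each control for Lyn (background 0.784%). Rap1b had a log2 difference of 0.55 (standard error 0.23, exact permutation p = 0.0857), and 0.35 without KO_214. Of 30 compared genes that induce chemokines or carry their induction, such as Tnf, Il1b and Nfkb1, 26 had a higher mean in Med23 CKO (background 43.8%), 25 were highest in KO_214 (background 25.4%) and 0 were called higher by limma at an unadjusted p under 0.05 (background 0.502%), with a median log2 difference of 0.24 that was -0.11 without KO_214.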

How the data were processed

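Primary hippocampal neurospheres of 7 single mice were analysed, 4 control and 3 Med23 CKO, matched to their groups by the labels. The table holds 1 control more than the study gives for each group; which control it leaves out is not given in the sources used here, and all were used. The authors removed adapters, mapped reads on mm10 (TopHat) and used Cuffdiff for FPKM per gene, and deposited 1 table with FPKM for each library. Their deposited group FPKM, log2 fold changes, test scores and p-values and q-values were not used. FPKM values fell on no steps of whole reads (the fullest bin of 0.05 log2 held 3.06% of low genes at most), so depth is unknown; precision rests on 7 libraries.

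After adding a pseudocount of 1 and taking log2, limma 3.58.1 (trend, R 4.3.3) compared the groups, two-sided with Benjamini-Hochberg adjustment, in the 14151 genes whose mean over all libraries reached 0.5 FPKM; differences on this scale understate the change of low genes. Single genes were also tested by exact permutation. Genes were set to be named with a mean of at least 1 FPKM or separated groups, with every library's value from a mean of 3 FPKM, and counts otherwise; values of other genes were added after they were seen. The members and lists were chosen with earlier results of these data known. The fit was tested on simulated data. Gene positions and 5′ windows are those of RefSeq on GRCm38.p6, which is mm10, and RefSeq matched all 61 symbols. Alternatives were a pseudocount of 0.1, no filter or a mean of at least 1 FPKM, quantile or median scaling, limma without trend, robust (statmod 1.5.0) or with array weights, a covariate for the leading digit of the mouse number, and each library left out. Values of some genes are not reported here.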

Additional observations from a re-analysis of the deposited data

Results flagged for a closer look

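Among 23 genes examined for a control library far from the other 3 (the 22 chemokines and receptors with a mean of at least 1 FPKM, and Med23), 1 was found. Cxcl10 had 3.86 FPKM in control WT_116, against 2.14 to 2.22 FPKM in the other controls, which is about what chance gives over that many genes (1 in 20). The 3 Med23 CKO libraries were too few for this check.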

How the results depend on the processing

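Over all genes, 0 were called at an adjusted p under 0.05 by limma in either direction. At an unadjusted p under 0.05 the split was 71 up and 141 down. It was 102 and 123 with quantile scaling, 99 and 119 with median centring, 195 and 273 with no filter and 193 and 887 with array weights, whose estimation stopped before it converged. Leaving out 1 library gave 44 to 362 up and 71 to 410 down, with the highest counts of both without KO_117. With 1 library left out, the adjusted calls ranged from 0 to 1 higher (1 without KO_214 and 1 without KO_218, neither a chemokine gene) and stayed at 0 lower. The count of chemokine genes higher at an unadjusted p under 0.05, which was 1, was 3 with no filter and 2 with array weights, and ranged from 0 (without WT_213, WT_220 or KO_214) to 9 (without KO_117); the count lower was 0 under all alternatives. The median log2 difference of the chemokine genes ranged from -0.16 to 1.17 with 1 library left out and from 0.05 to 0.93 under the other alternatives.

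With array weights, 3 differences changed sign, to 0.031 for Ackr1, 0.069 for Ccl27a and 0.11 for Cxcl10, and that of Ccl2 fell to 0.17. Over the 7 fits that leave out 1 library, the log2 difference ranged from -0.55 to 2.15 for Ccl2, from -0.36 to 2.47 for Ccl3, from -0.22 to 1.99 for Ccl4, from -0.12 to 1.56 for Ccl5, from -0.088 to 1.81 for Ccl6, from -0.50 to 1.86 for Ccl7, from -0.31 to 2.20 for Ccl9 and from -0.17 to 1.51 for Cxcl16, with the lower end without KO_214 in each. It ranged from -0.27 to 0.078 for Ackr1, from -0.54 to 0.44 for Ccl27a, from -0.86 to 0.26 for Ccl8, from -0.73 to 0.34 for Cx3cl1 and from -0.40 to 0.30 for Cxcl10. The log2 differences of Cxcl14 (0.53 to 1.17), Cxcl12 (0.49 to 1.06), Ackr3 (0.30 to 0.95) and Pf4 (0.80 to 1.53) stayed above 0 in those fits. The cause of these changes was not tested. Depth is unknown, and 3 libraries against 4 limit every comparison. No paired analysis was possible because the groups share no mouse number.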
